A study of Glycine max with 4 samples.

Results

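The 832 sites described here were bound in the interiors of 19 soybean chromosomes. A site was a pair of peaks, 1 from each replicate of a chromatin immunoprecipitation sequencing (ChIP-seq) experiment, that overlapped by at least 50% of both widths. Each peak entered 1 pair at most, and the larger overlap won. The 832 sites were those whose replicate 1 summit lay at 35 to 70% of the chromosome's extent, among 9063 paired sites on all chromosomes but chromosome 13. The extent ran to the last peak end in either list, since chromosome lengths were not used here. The 6479 sites in the first and last 20% of the same chromosomes, called outer sites below, served for comparison. Position and pairing chose the sites. No threshold on fold or spacing was set, but widths enter through the overlap, and interior peaks of replicate 1 left without a partner had a lower median fold, 3.63, than the 6.43 of the paired ones.

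The protein was that of locus GLYMA.08G357600, in embryos dissected from 6 to 7 mm seeds of cultivar Williams 82 at the early maturation stage. There were 2 groups of 2 biological replicates each. In the ChIP group, chromatin fixed with formaldehyde was precipitated with an antibody against a peptide of that protein, amino acids 487 to 502. In the input group, the chromatin of the same stage was sequenced without precipitation. Both peak lists belong to the ChIP group, and no separate values of the input group enter here. Antibody specificity was not tested.

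ChIP-seq finds stretches of DNA that a protein occupies, because fragments crosslinked to it are recovered more often than the rest of the genome. Soybean chromosomes are known for gene-rich, frequently recombining ends and for long interior stretches around the centromere that are rich in repeats and poor in genes. During early maturation the embryo stops forming new organs and begins to store protein and oil, under the control of transcription factors that bind near the genes they act on. Whether the interiors set by percent of extent match repeat-rich chromatin was not tested. No genome or gene annotation matched to the lists was used, so sites are given by position alone.

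The interiors held few sites for their length. They made up 35% of the extent of the 19 chromosomes, 315.6 of 901.7 Mb, and 9.18% of the paired sites (exact Clopper-Pearson 95% interval 8.59 to 9.79%, counting error only). Density was 2.64 sites per Mb in the interiors and 17.96 per Mb in the outer parts, a ratio of 0.147. Each list on its own gave nearly the same ratio. Replicate 1 had 1339 interior peaks, or 4.24 per Mb, against 10492 outer peaks, or 29.1 per Mb, a ratio of 0.146. Replicate 2 had 928 interior peaks, or 2.94 per Mb, against 7237 outer peaks, or 20.1 per Mb, a ratio of 0.147. With 2 libraries a two-sided exact permutation test, by sign flips, cannot go below p = 0.5, which is what the density ratios gave. The requirement of a partner thus sets how many sites are counted, 832 against 1339 in replicate 1 alone, and hardly moves the ratio.

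Density went on falling inside the interiors. It was 6.19 sites per Mb at 30 to 35% of the extent, 4.26 at 35 to 40%, 1.69 at 55 to 60%, 3.46 at 65 to 70% and 6.28 at 70 to 75%. The lowest density of the 20 bins was thus past the midpoint, at 55 to 60%, where 76 sites fell in 45.1 Mb. In that bin, 2 of the 19 chromosomes had no site at all. The 53 sites at 35 to 36% had median folds of 6.22 and 5.39 in replicates 1 and 2, and the 45 sites just outside, at 34 to 35%, had 6.12 and 5.51. At the other bound, the 38 sites at 69 to 70% had 7.24 and 6.12, and the 39 sites at 70 to 71% had 6.43 and 5.62.

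**Figure D1:**
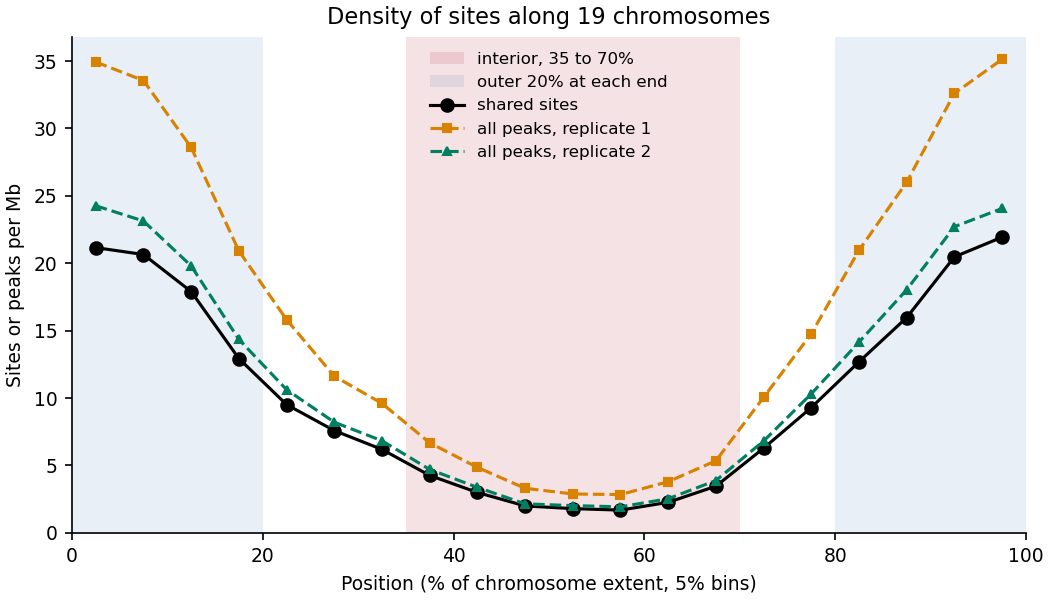
Paired sites per Mb (black) and all peaks per Mb of replicates 1 (orange) and 2 (green) in 5% bins of chromosome extent, over 19 chromosomes. The shaded interior, 35 to 70%, holds the lowest part of all 3 curves, with 1.69 paired sites per Mb at 55 to 60%.

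All 19 chromosomes had a lower density in the interior than in the outer parts, but by very different margins. Chromosome 8 had the densest interior, with 86 sites or 5.15 per Mb against 19.01 per Mb in its outer parts, a ratio of 0.271. Chromosome 17 followed with 54 sites, or 3.71 per Mb, and chromosome 7 with 57 sites, or 3.65 per Mb. At the other extreme, chromosome 2 had 22 interior sites, or 1.296 per Mb, against 20.3 per Mb in its outer parts, a ratio of 0.0638. Chromosomes 10 and 4 came close to it, with 23 and 25 sites, 1.28 and 1.37 per Mb, and ratios of 0.0667 and 0.0674. Even the densest interior stayed below the sparsest outer parts, those of chromosome 20 with 11.4 per Mb. A dense interior did not go with dense ends: across the 19 chromosomes the Spearman correlation between the densities was 0.19, given as a description, since all chromosomes share the same 2 libraries.

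**Figure D2:**
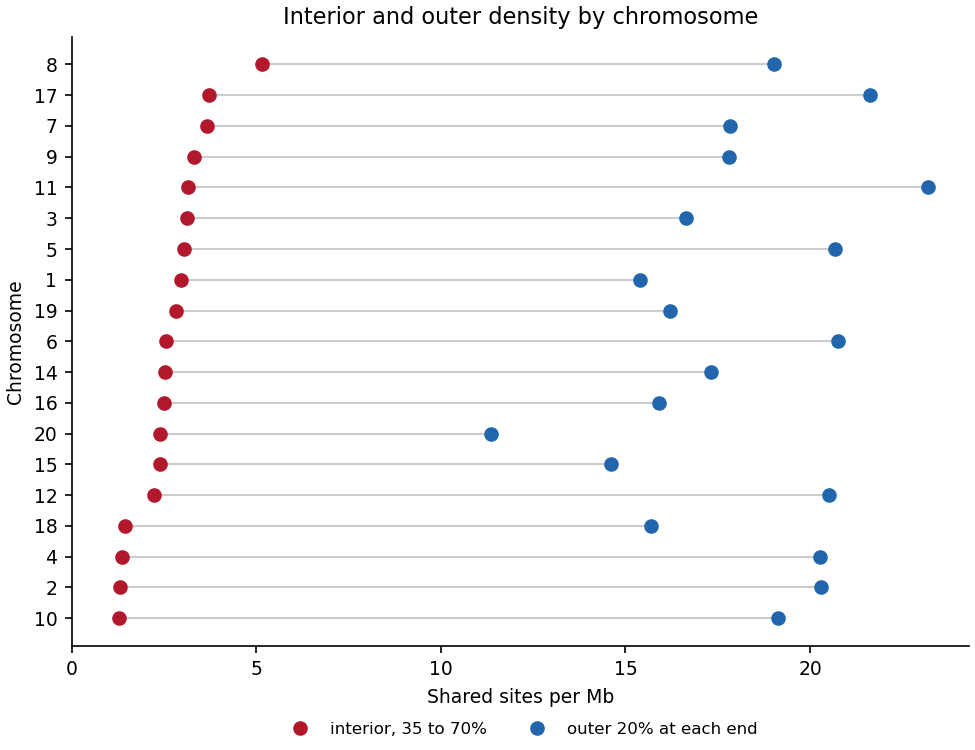
Paired sites per Mb in the interior (red) and in the outer 20% at each end (blue) of each chromosome, sorted by interior density. The interiors run up to 5.15 per Mb on chromosome 8 and the outer parts start at 11.4 per Mb on chromosome 20, so the ranges do not overlap.

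Interior sites were also unevenly spread within a chromosome. With each interior divided at its midpoint, 455 sites lay in the first part and 377 in the second, and 11 of the 19 chromosomes had more in the second. Chromosome 8 had 74 sites in the first part and 12 in the second, and chromosome 7 had 49 and 8. Chromosomes 19 and 5 were the reverse, with 7 and 43 sites and with 9 and 36. Chromosomes 14 and 16 were nearly even, with 21 and 22 and with 16 and 17. The sparse stretch therefore sat at different places on different chromosomes.

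Gaps without any site took up more than 50% of the interior length. A gap is here a stretch of at least 1 Mb of the interior without a paired site, between replicate 1 summits and clipped at the interior's bounds. There were 85 gaps on the 19 chromosomes, 5 of them reaching a bound, and together they spanned 163.0 Mb, or 51.7% of the interiors. The share ran from 26.4% of the interior on chromosome 3 to 72.6% on chromosome 18. In the outer parts, with more length, there were 4 such gaps. Outside the gaps, the remaining 152.6 Mb of the interiors held 5.45 sites per Mb. Of the 85 gaps, 27 were at least 2 Mb long, on 17 chromosomes, and 10 were at least 3 Mb long.

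The longest gap ran for 6.59 Mb on chromosome 2, from the summit at 19237863 to the summit at 25823870, or 39.7 to 53.2% of the extent. The next was 4.79 Mb long on chromosome 7, from 23449984 to 28240244. Chromosome 4 had one of 4.73 Mb, from 27129927 to 31864273. These 3 gaps lie over the middle of their chromosomes or just past it. Chromosome 10 had one of 4.63 Mb, from 18093328 to 22720881, which opened at 35.2% of the extent, just inside the interior. On chromosome 18 a gap of 4.27 Mb ran from 35479247 to 39747687, and another of 3.43 Mb from 25786405 to 29220182. Chromosome 19 had one of 3.90 Mb, from 23186764 to 27089922. Chromosome 5 had one of 3.68 Mb, from 15803882 to 19488006. Chromosome 6 held a pair of long gaps, 3.63 Mb from 30789537 to 34424076 and 3.56 Mb from 23971826 to 27528869. Positions are those of the peak lists, counted from 1, for which no source used here names a genome build.

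Peaks left without a partner were sparse in the gaps too. The 10 longest, on 8 chromosomes, spanned 43.2 Mb and held 19 unpaired peaks of replicate 1 and 7 of replicate 2. Over all 85 gaps, unpaired peaks of replicate 1 numbered 126, or 0.773 per Mb, against 2.497 per Mb in the interiors outside the gaps. Neither list had a peak in 22 gaps. The longest interior stretch without a peak of either list was 4.31 Mb, on chromosome 10 from 18410040 to 22720881. Peaks that overlapped by less than 50%, and so formed no pair, lay in 7 gaps. In a 1.39 Mb gap on chromosome 7, from 28240244 to 29627968 and named after its values were seen, the highest unpaired peaks reached 12.3-fold in replicate 1 and 7.09-fold in replicate 2. Whether reads could be placed across these stretches was not tested, since the lists say nothing of positions without a peak.

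When the longest gap was sought along each whole chromosome, 15 of 19 were centred in the interior, and 13 lay wholly within it. Those of chromosomes 1, 3, 16 and 20 were centred before it, at 26.2, 29.1, 30.6 and 31.7% of the extent. Their lengths ran from 2.07 Mb on chromosome 8 to 6.59 Mb on chromosome 2, with a median of 2.95 Mb.

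**Figure D3:**
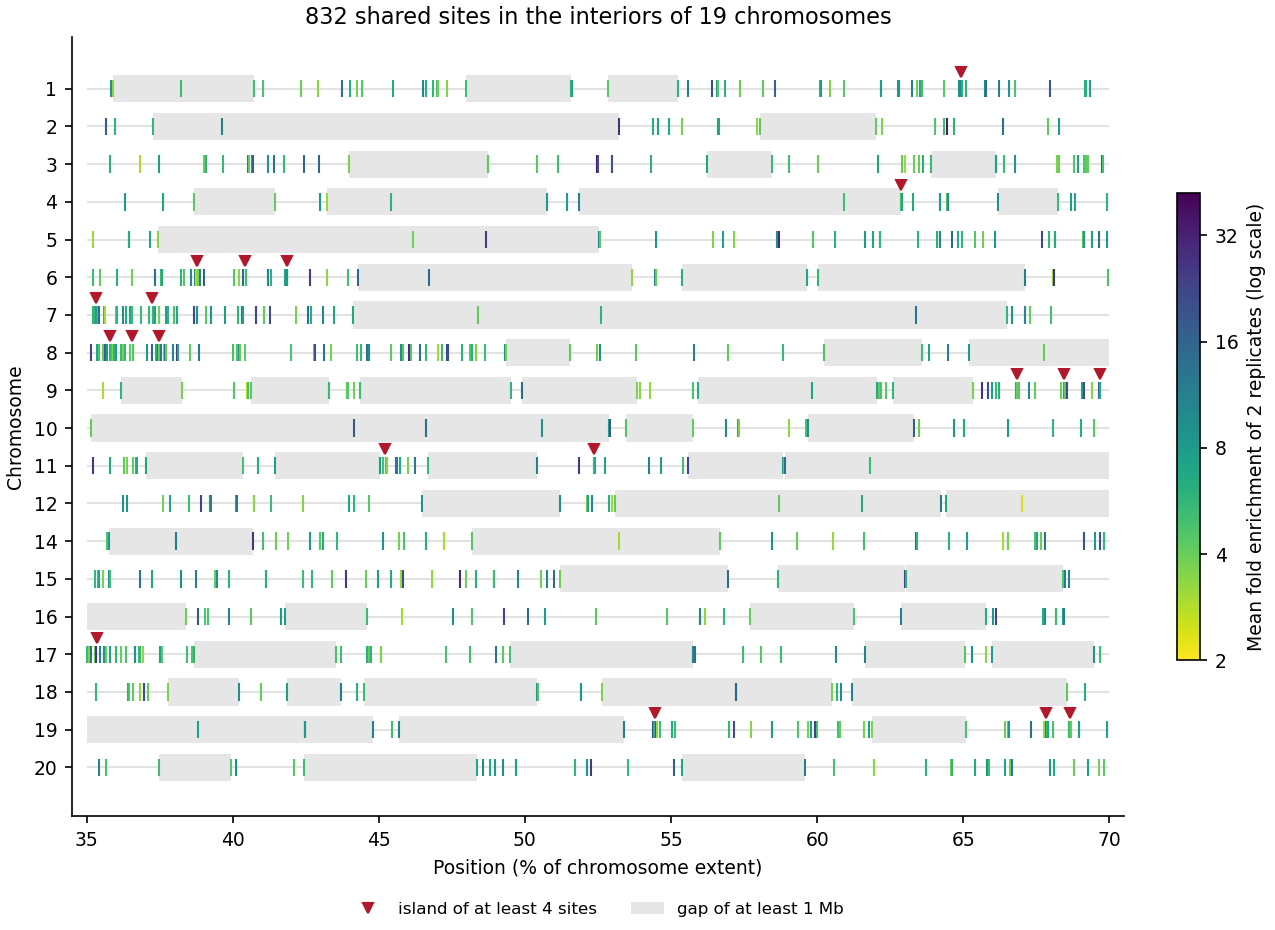
The 832 interior sites as ticks by position in percent of chromosome extent, coloured by mean fold enrichment of the 2 replicates on a log scale, with the 85 gaps of at least 1 Mb in grey and the 19 islands of at least 4 sites as red triangles. A tick between grey blocks marks 1 or more close sites between neighbouring gaps. Of the 19 triangles, 16 lie before 45% or past 60%, where most interior sites lie too.

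Outside the gaps, some sites formed small islands. An island is a run of at least 4 interior sites with neighbouring summits at most 50 kb apart. There were 19 islands on 9 chromosomes, with 95 sites, or 11.4% of the 832, in 1313 kb, or 0.416% of the interior length. Of the 19, 10 had 4 sites and 5 had 5. By their mean position 16 lay before 45% or past 60% of the extent, toward the flanks, and 3 lay nearer the middle, on chromosomes 11 and 19. The 5% bins at 35 to 45% held 192 and 135 interior sites, and those at 60 to 70% 102 and 156. The bins between held 90, 81 and 76, so most interior sites lay toward the flanks too. The number of islands rests on both lists: replicate 1's list alone gave 52 and replicate 2's alone 24.

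The island with most sites, 9, lay on chromosome 8 from 16975291 to 17192033, a span of 217 kb at 35.8% of the extent. From left to right its folds in replicate 1 were 4.22, 21.1, 14.1, 9.03, 6.39, 5.54, 3.36, 7.02 and 8.43. In replicate 2 they were 3.85, 16.6, 11.9, 8.16, 5.24, 3.59, 3.84, 4.94 and 7.00. Both replicates thus had the same pair of neighbouring sites highest, and the others were spread below 10-fold.

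The second island, with 8 sites, lay on chromosome 19 from 27580010 to 27701939, at 54.5% of the extent, and was the largest near a chromosome's middle. Its folds were 14.8, 23.1, 23.0, 8.01, 10.1, 17.2, 2.86 and 4.44 in replicate 1. In replicate 2 they were 14.2, 19.4, 15.6, 3.91, 6.51, 19.6, 3.72 and 5.63. In both replicates 4 of the 8 sites exceeded 10-fold, the most of any island. It stood 490 kb from the next site before it and 221 kb from the next after it.

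The next island, with 7 sites, lay on chromosome 9 from 34282750 to 34384466. It had 2 sites above 10-fold in both replicates, 20.1 and 14.4 at one and 22.4 and 19.8 at the other, and its remaining mean folds ran from 3.84 to 9.13. A 6-site island on chromosome 8, from 17847969 to 17915414, reached 12.5-fold and 12.9-fold at one site and 11.4-fold and 12.9-fold at its last. A 5-site island on chromosome 6, from 21434233 to 21484001, had 4 of its sites close together at its right end, the highest with 13.3-fold in replicate 1 and 15.0-fold in replicate 2. Each of these named islands mixed 1 to 4 strong sites with weak ones, and the lowest mean fold among them was 3.29. The chromosome 6 island was taken from 5 islands of 5 sites for its higher summed fold. Of the others, those on chromosome 7 had 1 site each at 10-fold or more in both replicates. Those on chromosome 11, from 15581626, and chromosome 9, from 33501925, had 0, so strong sites were not found in every island.

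Many interior sites stood apart from each other. Of the 832, 411, or 49.4%, had no other interior site within 50 kb. The nearest paired site of any kind was at least 500 kb away for 62 sites, or 7.45%, against 8 of the 6479 outer sites, or 0.123%. The 62 solitary sites had median folds of 6.201 and 5.27 in replicates 1 and 2, and the 95 island sites had 6.84 and 5.45. At least 10-fold in both replicates was reached by 11 solitary sites, or 17.7% (9.20 to 29.5%), and by 20 island sites, or 21.1% (13.4 to 30.6%). Over all 9063 paired sites the share was 16.5%, which lies inside both intervals.

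The distance between neighbouring summits in the interiors had a median of 122 kb, with quartiles of 31.6 and 408 kb, against 29.96 kb, with quartiles of 10.5 and 67.2 kb, in the outer parts. The ratio of the medians was 4.08, and that of the means, 367 and 54.5 kb, was 6.73. Pooled over the 19 chromosomes, spacing had a coefficient of variation of 1.79 in the interiors, against 1.4997 in the outer parts. Unevenness within a chromosome was not separated here from differences in density between chromosomes. At least 1 Mb separated 80 of 813 interior neighbours, or 9.84%, and 4 of 6441 outer neighbours, or 0.0621%. In the single lists the ratio of the medians was 4.24 in replicate 1 and 4.24 in replicate 2 (exact permutation p = 0.5, the smallest possible).

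Distances up to 3 kb differed less in their share between the zones than those over 3 kb and up to 10 kb. Summits at most 3 kb apart made up 66 of 813 interior distances, or 8.12% (exact 95% interval 6.33 to 10.2%), against 598 of 6441 outer distances, or 9.28% (8.59 to 10.02%), and these intervals overlap. Distances over 3 kb and up to 10 kb made up 52, or 6.40% (4.81 to 8.30%), in the interiors, against 956, or 14.8% (13.98 to 15.7%), in the outer parts, and these do not. The intervals cover counting error only and take distances as independent. The share up to 3 kb was 12.7% in the interiors and 14.7% in the outer parts in replicate 1's list alone, and 10.1% and 11.3% in replicate 2's alone. With at least 4-fold in both replicates it was 4.80% and 6.74%. With 80% overlap it was 3.85% and 5.17%, and with −log10 q of at least 10 in both replicates 5.16% and 6.84%.

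The 66 close pairs held 126 of the 832 sites, or 15.1%, on 17 chromosomes, with most on chromosome 9, which had 9. Among outer sites, 1126, or 17.4%, had a paired site within 3 kb. The interior close pairs had a median distance of 1650 bp and a smallest of 582 bp. Whether adjoining peaks form 1 stretch of enrichment was not tested. The stronger site of a pair had a median of 1.91 times the mean fold of the weaker, and in 32 pairs it had over 2 times. Sites in close pairs had median folds of 6.01 and 5.26 in replicates 1 and 2, against 6.497 and 5.62 at the other interior sites.

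**Figure D4:**
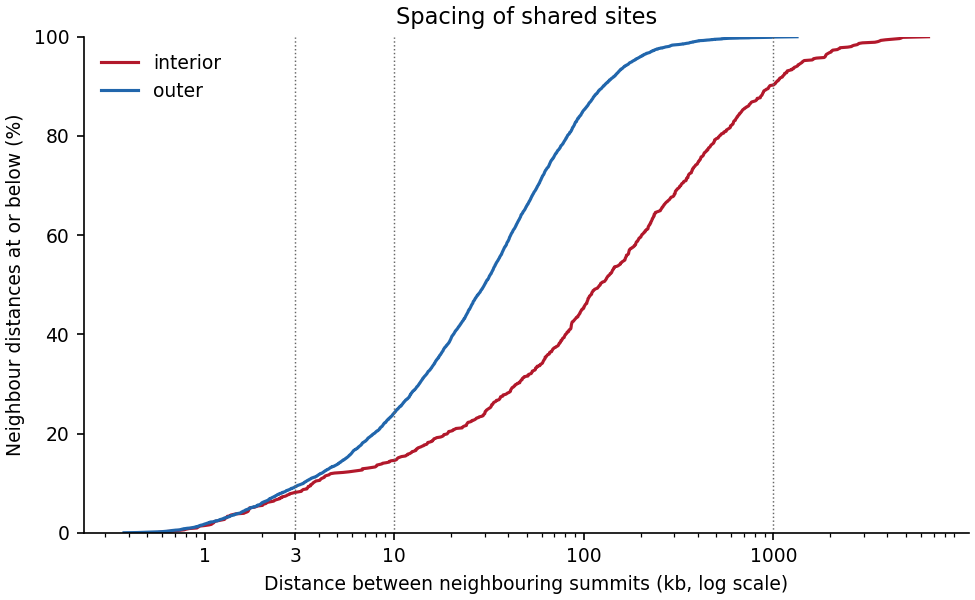
Cumulative percent of distances between neighbouring summits, on a log axis in kb, for 813 interior (red) and 6441 outer (blue) distances, with dotted lines at 3 kb, 10 kb and 1 Mb. The curves run together up to about 3 kb, with 8.12% interior and 9.28% outer distances, and then separate.

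Interior sites had slightly higher folds than outer ones in both replicates, by far less than the spread among sites. Fold enrichment is the authors' value for how far the summit exceeds its local background. In replicate 1 its median was 6.43 in the interiors, from 1.95 to 44.4, and 6.17 in the outer parts, from 2.10 to 42.5. In replicate 2 it was 5.59 in the interiors, from 2.29 to 37.8, and 5.34 in the outer parts, from 2.12 to 39.4. The difference of the medians was 0.0617 ± 0.0032 on the log2 scale (SD, n = 2, exact permutation p = 0.5, the smallest possible). The interior median was the higher in both replicates on 11 of 19 chromosomes and the lower in both on 4. Leaving out chromosome 7 lowered the difference to 0.0360, by over 1.5 times.

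Recovered fragment numbers put that small difference beside the background. Fragments covering the summit had a median of 70 in the interiors and 70 in the outer parts in replicate 1, and of 56 and 54 in replicate 2. A count of 70 has an exact Poisson 95% interval of 54.6 to 88.4 and a count of 56 one of 42.3 to 72.7, counting error only. The background at the summit had a median of 9.78 in the interiors and 10.3 in the outer parts in replicate 1, and of 7.16 and 7.23 in replicate 2. In replicate 1, 74 interior sites, or 8.89% (7.05 to 11.04%), stood on the lowest background of the list, 7.87, which the caller takes for the whole genome, against 135 outer sites, or 2.08% (1.75 to 2.46%). In replicate 2, 161 interior sites, or 19.4% (16.7 to 22.2%), stood on the lowest, 6.09, against 513 outer sites, or 7.92% (7.27 to 8.60%). The caller's background at interior sites was thus more often at its lowest, genome-wide level, and its part in the fold difference was not tested. Whether that background came from the input libraries was not tested either.

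The share of strong sites in the interiors lay near that of all sites. At least 10-fold in both replicates was reached by 142 of the 832 interior sites, or 17.1% (14.6 to 19.8%), and by 1070 of the 6479 outer sites, or 16.5% (15.6 to 17.4%). The share over all 9063 paired sites, 16.5%, lies inside the interior interval. By mean fold, 121 interior sites, or 14.5%, were below 4-fold, against 16.6% of outer sites. The class from 4-fold to below 6-fold held 36.4% of interior and 37.1% of outer sites. At 20-fold and above were 42 interior sites, or 5.05% (3.66 to 6.76%), and 272 outer sites, or 4.20% (3.72 to 4.72%). The interior share of all sites in a class went from 8.20% (6.85 to 9.72%) below 4-fold to 10.7% (7.79 to 14.1%) at 20-fold and above, with intervals that overlap.

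Along the interiors, the highest median fold of the 5% bins was at 50 to 55%, where 81 sites had 7.31 in replicate 1 and 6.33 in replicate 2. In the other 6 interior bins the medians ran from 6.02 to 6.73 in replicate 1 and from 5.10 to 6.06 in replicate 2. Chromosome 4 had the highest interior median in replicate 1, 7.67 over 25 sites, and 6.94 in replicate 2. Chromosome 10 had 6.85 and the highest of replicate 2, 7.18, over 23 sites. Chromosome 9 had the lowest in both, 5.28 and 4.92 over 58 sites. Chromosomes 4 and 10 were also among the 3 with the fewest interior sites. On chromosome 2, with the fewest, 22, the medians were 6.80 and 5.43, against 6.43 and 5.59 over all interior sites.

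Widths differed little. Replicate 1 peaks had a median width of 477 bp at interior sites and 469 bp at outer sites, and replicate 2 peaks 387 bp and 380 bp, ratios of 1.017 and 1.018 (exact permutation p = 0.5, the smallest possible). Quartiles were 377 and 599 bp in the interiors and 375 and 606 bp in the outer parts in replicate 1. The mean of both ratios, 1.018, fell to 0.9997 with at least 4-fold required in both replicates and to 0.997 with the interior taken as 30 to 75%. Replicate 1's list alone, paired or not, gave 0.992. Stronger sites were wider in both zones, with Spearman correlations of 0.777 and 0.759 across interior sites in replicates 1 and 2, given as descriptions because both values come from the same fragments. At 10-fold to below 20-fold, interior sites had median widths of 653 and 571 bp in the replicates, and outer sites 670 and 555 bp.

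**Figure D5:**
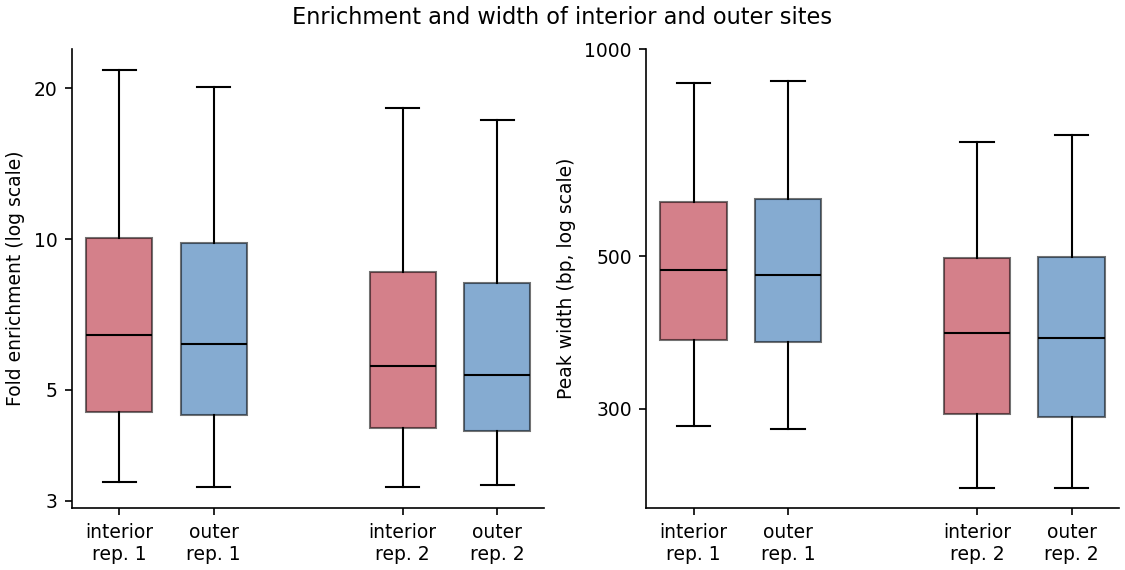
Fold enrichment (left) and peak width (right), both on log axes, of 832 interior (red) and 6479 outer (blue) sites in each replicate, with boxes for quartiles, lines for medians and whiskers at the 5th and 95th percentiles. The boxes of interior and outer sites nearly coincide, with median folds of 6.43 and 6.17 in replicate 1.

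The strongest interior sites included the strongest of all 19 chromosomes. At chr8:21316522-21317476, 44.7% along the chromosome, fold was 44.4 in replicate 1 and 37.8 in replicate 2, a mean of 41.1 ± 4.70 (SD, n = 2, as for the means that follow). Its summit carried 422 fragments in replicate 1 (Poisson 95% interval 383 to 464) and 350 in replicate 2 (314 to 389). Both values stood far above the medians of 70 and 56, and the background under them, 8.52 and 6.86, was close to the genome-wide level. The nearest paired site lay 8.11 kb away.

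The second, at chr3:23958389-23959865, had 42.7-fold and 29.96-fold, a mean of 36.3 ± 8.995, and was 1477 bp wide in replicate 1. A neighbour lay 4.05 kb to its right, and none for 613 kb to its left. The site at chr6:19160193-19161195 followed with 38.2-fold and 30.3-fold and a mean of 34.2 ± 5.61, with a neighbour 3.50 kb away. At chr2:31260214-31261123 folds were 32.2 and 34.0003, with a mean of 33.1 ± 1.27. These 4 sites ranked 1, 8, 21 and 32 by mean fold among the 9063.

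A second site on chromosome 8, chr8:21974462-21975385, had 33.4-fold and 26.8-fold, with its summit at the same base in both replicates. The site at chr5:24777584-24778615 had 37.9-fold in replicate 1 and 21.1-fold in replicate 2, the largest spread of the 10, a mean of 29.5 ± 11.9. There the background was 8.47 in replicate 1 and 11 in replicate 2, while the fragments, before scaling, numbered 358 and 298. At chr15:24630755-24631421 the folds were 27.4 and 29.9, over a peak of 667 bp in replicate 1, the narrowest of the 10.

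Chromosome 9 held sites at chr9:22252503-22253360, with 29.2-fold and 27.1-fold, and at chr9:32916056-32916827, with 30.1-fold and 24.3-fold. The first of them had a neighbour 1.29 kb to its right, and past that neighbour lay a gap of 2.59 Mb. The tenth, at chr2:25823454-25824281, had 24.6-fold and 29.7-fold, a mean of 27.1 ± 3.64, and ends the 6.59 Mb gap of chromosome 2, with the next site 565 kb further on. The eleventh site had a mean of 26.9, so the bound at 10 marks no break.

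The 10 sites lay on 7 chromosomes. Summits of the 2 replicates differed by at most 27 bp, and 7 of the 10 had the higher fold in replicate 1. Of the 10, replicate 1 by itself also placed 7 in its interior top 10, replicate 2 placed 8, and both placed 5. Fragments at their summits numbered 282 to 422 in replicate 1 and 208 to 353 in replicate 2. A neighbour within 10 kb stood beside 4 of them. Of the 100 sites with the highest mean fold on the 19 chromosomes, 7 were interior and 68 outer, where all sites divided as 9.18% and 71.5%.

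The widest interior site was at chr19:34804765-34806461, with widths of 1697 and 1614 bp in the replicates, and 25.2-fold and 20.7-fold enrichment. The second widest was the chromosome 3 site named above. The next, at chr17:15256027-15257304, was 1278 bp and 1217 bp wide, with 10.999-fold and 9.16-fold, and its summits lay 88 bp apart. At the low end, chosen after its values were seen, the weakest site, chr12:26777365-26777649, had 2.55-fold and 2.29-fold with 29 and 34 fragments. It stood alone, 1034 kb from the nearest paired site.

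Interior peaks found a partner about as often as outer ones. Of replicate 1's 1339 interior peaks 62.1% (59.5 to 64.7%) had a partner, against 61.8% (60.8 to 62.7%) of its outer peaks and 62.0% of all its peaks on the 19 chromosomes. Of replicate 2's 928 interior peaks 89.7% (87.5 to 91.5%) had one, against 89.5% (88.8 to 90.2%) of its outer peaks and 89.8% of all. The shares of all peaks lie inside both interior intervals. The 507 interior peaks of replicate 1 without a partner had a median of 3.63-fold, and the 96 of replicate 2 a median of 3.74-fold. Peaks overlapping by 45 to 50%, just short of the rule, numbered 10 in the interiors, with median folds of 5.24 and 4.10. The 19 interior sites overlapping by 50 to 55% had 4.59 and 3.87.

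Across interior sites fold had a Spearman correlation of 0.809 between replicates, and across outer sites 0.820, given as descriptions over sites of the same 2 libraries. Summits lay a median of 25 bp apart in both zones, and within 50 bp at 650 interior sites, or 78.1%, and at 77.5% of outer sites. Replicate 1 had the higher fold at 552 interior sites, or 66.3%, and by a median factor of 1.12, against 66.9% and 1.13 at outer sites. The folds differed by over 2 times at 20 of the 832 interior sites, at 19 of them with replicate 1 higher. Of the 6479 outer sites 159 differed by as much, 151 of them with replicate 1 higher. The widest difference, singled out after its values were seen, was at chr15:32498955-32499382, with 9.28-fold in replicate 1 and 2.79-fold in replicate 2. There 90 fragments stood on a background of 8.81 in replicate 1, and 45, before scaling, on a background of 13 in replicate 2.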

How the data were processed

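ChIP and input samples of soybean embryos, 2 each, were made with 15 PCR cycles per the labels' protocols. The submitters' processing notes list Bowtie 0.12.7 along with MACS2, and no source used here states a MACS2 version, a genome build or a threshold. The authors deposited 1 peak list per ChIP replicate, with 15861 and 10950 peaks, and no list of the input was analysed here. The deposited fold is a ratio, ChIP over local background, taken at each summit. The deposited significance is the −log10 of the p-value and of the q-value, the lowest −log10 q being 2.03 and 2.05. The deposited score equals 10 times the −log10 q, truncated to an integer, for all peaks except 1. No library totals were used, so depth is known only through recovered fragments.

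Members and lists were chosen with earlier results of these data known. Chromosome 13 and scaffolds were left out by the rule. Fragment number and background at each summit followed from 2 deposited values solved together: the fold, as (pileup + 1)/(background + 1), and the −log10 p, as a Poisson upper tail. Whole fragment numbers gave back the −log10 p within 0.01 in 100% of peaks, with a ChIP scale of 1 in replicate 1 and 0.846 in replicate 2. PCR copies are not independent molecules, so intervals cover counting error only. Pairing, placing and recovery were tested on simulated data. Named were the 10 strongest sites by mean fold, the 5 islands with most sites, 10 gaps and the 3 widest sites. Ties in island size went to the higher summed fold. Tables were handled with pandas 2.3.3 and numpy 2.4.6 in Python 3.11.15, intervals came from scipy 1.17.1, and plots from matplotlib 3.10.9.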

Additional observations from a re-analysis of the deposited data

Results flagged for a closer look

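Peaks that the comparisons leave out also held paired sites. The interior of chromosome 13 had 307 paired sites, or 19.2 per Mb, against 247, or 13.5 per Mb, in its outer parts, the reverse of the order on each of the other 19 chromosomes. Median folds there were 5.96 and 5.31 in replicates 1 and 2. Unplaced scaffolds had 52 paired sites.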

How the results depend on the processing

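The number of interior sites, 832, was 862 with any overlap, 602 with 4-fold and 600 with −log10 q of 10 in both replicates. It was 409 with 80% overlap, 484 at 40 to 65%, 1394 at 30 to 75% and 928 to 1339 in single lists. The density ratio, 0.147, was 0.145 with any overlap, 0.153 with 80% overlap, 0.151 with 4-fold, 0.1195 at 40 to 65%, 0.191 at 30 to 75%, 0.194 with chromosome 13, 0.125 against the outer 10%, 0.162 against the outer 25%, 0.139 without chromosome 8, 0.152 without chromosome 4, and 0.146 to 0.147 in single lists. The spacing ratio, 4.08, was in the same order 4.12, 4.69, 4.34, 5.79, 2.86, 2.64, 4.45 and 3.91, with 4.46 for the q threshold, 3.94 without chromosome 3, 4.59 without chromosome 8, and 4.235 to 4.24 in single lists. Other bounds and chromosome 13 change which sites and lengths are counted. The cause of the shifts was not tested. The fold difference, 0.0617, stayed above 0 under every alternative run, between 0.0295 and 0.135. The width ratio, 1.018 as the mean of both replicates, fell below 1 with 4-fold (0.9997) and at 30 to 75% (0.997), and ran from 0.992 to 1.02 in single lists.

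Islands, 19, numbered 3 with 80% overlap, 10 with 4-fold, 9 with the q threshold, 7 at 40 to 65%, 53 at 30 to 75%, 49 with chromosome 13, 8 linked at 25 kb, 42 at 100 kb, 53 with 3 sites, 4 with 6 sites, and 24 to 52 in single lists. Gaps, 85, numbered 178 at 0.5 Mb, 27 at 2 Mb and 69 to 82 in single lists. Strong sites, 17.1%, were 26.3% at 8-fold and 12.02% at 12-fold. No paired analysis was possible because each replicate number has 1 peak list, of the ChIP group. The close-neighbour share and its alternatives were added after the data were seen.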
